A study of Mus musculus with 20 samples.

Results

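The genes described here are 50 genes of endothelial cells and of angiogenesis, measured by RNA sequencing in the heart apex of 20 mice. They were chosen by name, as proteins of the vessel lining and its junctions, transcription factors, growth factor receptors and ligands, apelin, Notch, ephrin and guidance genes, capillary transport genes and leukocyte adhesion molecules, and all 50 were found among the 25308 genes of the table. AL mice were λS-DH mice (labelled genotype DH-lambdaS) in which amyloid formation had been induced and whose hearts were labelled amyloid positive. LS mice had the same genotype, were not induced and were labelled amyloid negative. Ctrl mice were DH-LMP2A mice (labelled genotype DH). λS-DH mice carry the cDNA of a human lambda light chain, taken from a patient with AL amyloidosis, under a mouse immunoglobulin heavy chain promoter in place of the J segments of the kappa locus. The DH-LMP2A background is common to all 3 groups and gives plasma cells that lack immunoglobulin heavy chains. Induction was a single intravenous dose of the recombinant variable domain of this light chain, either as sonicated fibrils or in soluble form. The labels do not say which of these each AL mouse received. Mice were adults of both sexes, with the age and sex of single mice not labelled, and the λS line came from embryonic stem cells with the targeted locus. The libraries were sequenced in 2 runs. The first run held 7 AL, 4 LS and 4 Ctrl mice at 43993277 to 62668146 counts per mouse, and the second run 2 AL and 3 Ctrl mice at 7867642 to 11794615 counts, with no LS mouse. Groups were therefore compared within each run. Checked against its markers, the tissue was heart muscle, with a summed level of 8 cardiomyocyte markers of 45600 to 86110 CPM (TMM-scaled counts of a gene relative to the library total, set within a run) in every mouse.

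Endothelial cells line every vessel, and in the heart most of them belong to capillaries that run beside each muscle fibre. VEGF-A, made largely by muscle cells, acts on the receptor VEGFR2 (Kdr) to drive endothelial growth, with Flt1 as a decoy and VEGF-C acting through Flt4, mainly on lymphatic vessels. Angiopoietin 1 from cells around the vessel keeps it quiescent through the receptor Tie2 (Tek), and angiopoietin 2 from the endothelium itself can oppose it. The tip cell ligand Dll4 signals through Notch to limit sprouting. The ETS factors Erg and Fli1 and the SOXF factors Sox7, Sox17 and Sox18 maintain endothelial identity, and Meox2 with Tcf15 act in heart capillaries, where they favour fatty acid uptake.

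Since ETS and SOX factors are among the members, promoters of 3 members whose level was higher in AL than in both control groups of the first run are shown, to let the letters that these factors favour be seen. The windows come from RefSeq on GRCm38.p6 and run from 250 bases before to 50 bases after the gene start, 5′ to 3′ on the strand of the gene. Capitals mark AGGAAG (a core that ETS factors favour) and AACAAT (a core that SOX factors favour), searched on both strands, which do not overlap here. Emcn lies at chr3:137340828-137341127 on the plus strand, Nr2f2 at chr7:70366697-70366996 on the minus strand and Meox2 at chr12:37108290-37108589 on the plus strand.
Emcn: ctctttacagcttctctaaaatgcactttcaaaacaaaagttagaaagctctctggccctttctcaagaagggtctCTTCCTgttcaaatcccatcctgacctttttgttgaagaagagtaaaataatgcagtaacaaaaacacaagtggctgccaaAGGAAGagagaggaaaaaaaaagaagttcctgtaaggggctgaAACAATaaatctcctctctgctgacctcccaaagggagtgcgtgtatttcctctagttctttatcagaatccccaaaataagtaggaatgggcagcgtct
Nr2f2: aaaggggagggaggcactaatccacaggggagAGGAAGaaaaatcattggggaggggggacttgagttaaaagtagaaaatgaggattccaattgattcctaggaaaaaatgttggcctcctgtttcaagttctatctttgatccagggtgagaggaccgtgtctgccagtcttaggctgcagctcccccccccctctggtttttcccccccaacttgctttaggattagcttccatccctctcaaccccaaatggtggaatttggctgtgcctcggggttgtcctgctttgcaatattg
Meox2: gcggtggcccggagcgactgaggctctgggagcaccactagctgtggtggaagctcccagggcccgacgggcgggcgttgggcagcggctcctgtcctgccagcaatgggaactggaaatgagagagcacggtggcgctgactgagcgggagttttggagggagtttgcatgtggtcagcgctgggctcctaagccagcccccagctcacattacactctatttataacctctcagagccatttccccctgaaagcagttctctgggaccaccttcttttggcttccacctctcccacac
The Emcn window held AGGAAG or its reverse complement 2 times and AACAAT 1 time, the Nr2f2 window AGGAAG 1 time, and the Meox2 window neither. Dll4, Vegfc and Icam1 also rose against both control groups, and their windows, not shown here, held neither. Of 32851 promoter windows in the table, 35.4% held the ETS letters and 10.7% the SOX letters. Of the 38 windows that belong to members (31 members matched), 42.1% and 10.5% did. A match of letters is a description of the window and not a binding site.

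Per length of transcript, the members spanned a wide range in the heart. In Ctrl mice of the first run the highest mean level was that of Aqp1, a water channel of capillaries, at 152.8 RPKM (CPM per kilobase of exon), followed by Fabp4, a fatty acid carrier of capillary endothelium and fat cells, at 93.7 RPKM and Cav1, the coat protein of caveolae, at 61.6 RPKM. The lowest were the leukocyte adhesion receptors Sele at 0.277 RPKM and Selp at 0.0785 RPKM. Egfl7 was the only member whose exons overlap other annotated genes on the same strand (Gm20532 and Mir126a), so its estimated counts may share reads with these.

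In the first run, 17 of the 50 members rose in AL against Ctrl mice at an FDR under 0.05 (edgeR quasi-likelihood test, Benjamini-Hochberg adjustment over all 14288 genes) and 1 member, Angpt1, fell. Among all genes tested, 25.6% passed this test (11.0% higher and 14.6% lower), against 36% of the members. The log2FC was below 0 for 10 of the 50 members and for 48.3% of all genes, with a median of 0.261 over the members and 0.012 over all genes. At a change of at least 1.5-fold, 9 members were higher and 1 lower, 20% of the members against 7.82% of all genes. Every AL mouse lay above every Ctrl mouse for 5 members (Egfl7, Emcn, Cav1, Dach1 and Sox7) and below for 1 (Angpt1), where 6.12% and 8.17% of all genes, 14.3% together, were so placed. In bulk tissue, fewer or more endothelial cells and less or more RNA per cell cannot be told apart. Against LS mice, 19 members rose and 1, again Angpt1, fell, 40% of the members, where 32.5% of all genes passed (15.6% higher and 16.9% lower). The median log2FC was 0.329 over the members and 0.016 over all genes. At 1.5-fold 9 members were higher and 1 lower, against 11.5% of all genes. The AL and LS mice did not overlap for 7 higher members (Egfl7, Emcn, Cav1, Meox2, Nr2f2, Cd300lg and Icam1) and 1 lower (Angpt1), where 9.77% and 10.7% of all genes, 20.5% together, did not. Both comparisons use the same 7 AL mice. The 13 members that rose against both groups were Egfl7, Emcn, Cav1, Fli1, Meox2, Sox7, Nr2f2, Tcf15, Vegfc, Angpt2, Dll4, Fabp4 and Icam1.

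**Figure D1:**
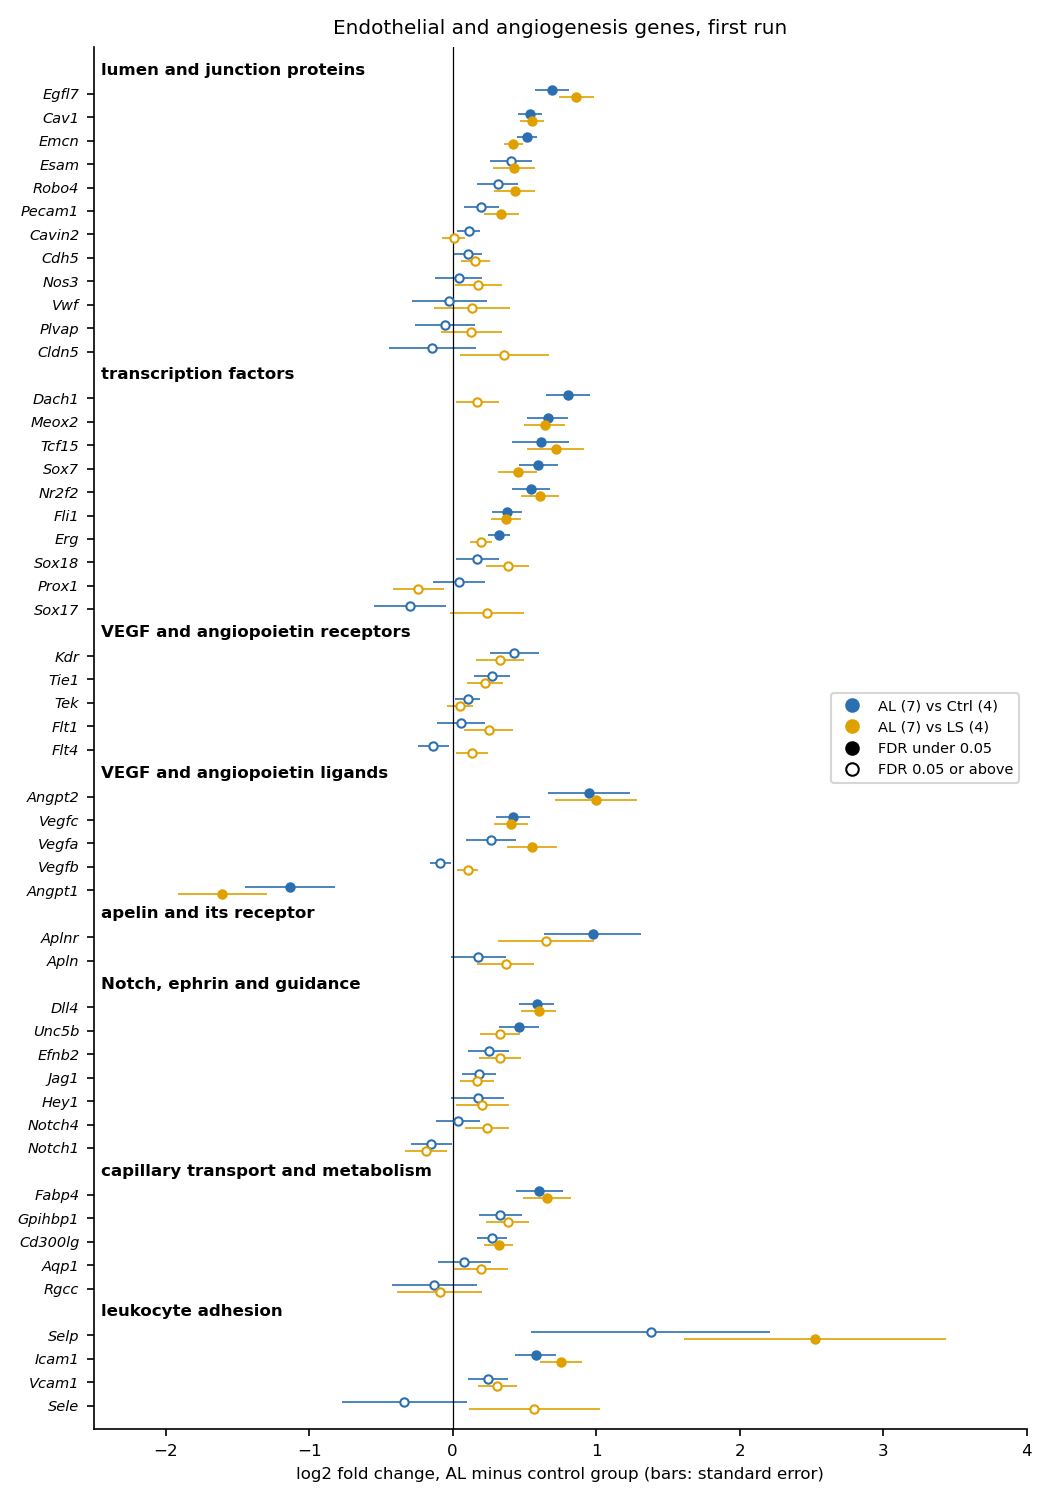
Log2 fold change of the 50 members in AL against Ctrl mice (blue) and against LS mice (yellow) of the first run, grouped by role, with bars for the standard error. Filled points have an FDR under 0.05, most points lie right of 0, and Angpt1 lies farthest to the left, at -1.13 against Ctrl and -1.61 against LS.

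These counts rest on the first run. In a fit of all 20 mice with the run as a term, 4 members passed against Ctrl (Esam, Egfl7 and Icam1 higher, Angpt1 lower) where 26.2% of all genes did, and 9 passed against LS (Esam, Egfl7, Cav1, Nr2f2, Vegfa, Angpt2, Icam1 and Selp higher, Angpt1 lower), where 23.4% of all genes did. Within the first run, 12 of the 18 calls against Ctrl mice passed whichever one of the 15 mice was left out (Egfl7, Emcn, Cav1, Erg, Meox2, Dach1, Sox7, Nr2f2, Angpt1, Dll4, Fabp4 and Icam1), and 10 of the 20 against LS mice (Egfl7, Emcn, Cav1, Meox2, Nr2f2, Tcf15, Angpt1, Dll4, Fabp4 and Icam1).

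Among the 12 lumen and junction proteins, 3 rose in AL against Ctrl mice (Egfl7, Emcn and Cav1) and 6 against LS mice (these 3 with Pecam1, Esam and Robo4), and none fell. These are 25% and 50% of the list, where 25.6% and 32.5% of all genes passed (11.0% and 15.6% higher). Egfl7 encodes a secreted factor that endothelial cells deposit around themselves. Its level was 80.2, 46.01, 56.8, 50.6, 57.2, 63.9 and 59.5 CPM in AL1 to AL7, 32.1, 30.1, 34.6 and 33.5 CPM in LS1 to LS4, and 33.3, 36.4, 37.2 and 39.7 CPM in Ctrl1 to Ctrl4. Every AL mouse of the first run was above every LS and Ctrl mouse, and AL1 was the highest. The log2FC was 0.69 (SE 0.118, FDR = 0.00218) against Ctrl and 0.86 (SE 0.119, FDR = 0.000568) against LS mice, which are 1.62-fold and 1.82-fold. Emcn encodes endomucin, a sialomucin of capillary and venous endothelium. AL1 to AL7 had 37.9, 31.6, 33.4, 31.2, 32.1, 36.8 and 30.8 CPM of Emcn, LS1 to LS4 had 23.6, 27.2, 24.5 and 24.3 CPM, and Ctrl1 to Ctrl4 had 24.0, 24.0, 23.5 and 21.6 CPM. No AL mouse overlapped the LS or Ctrl mice, which overlapped each other, and the log2FC was 0.52 (SE 0.0677, FDR = 0.000745) against Ctrl and 0.42 (SE 0.0674, FDR = 0.00092) against LS mice. Cav1 was measured at 345.3, 366.5, 292.5, 276.4, 317.0, 293.2 and 267.4 CPM in AL1 to AL7, at 216.0, 198.8, 196.2 and 228.4 CPM in LS1 to LS4 and at 210.0, 214.2, 216.8 and 207.6 CPM in Ctrl1 to Ctrl4. Again no control mouse reached the lowest AL mouse, and the log2FC was 0.54 (SE 0.0828, FDR = 0.0014) against Ctrl and 0.56 (SE 0.0828, FDR = 0.000812) against LS mice.

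Other lumen and junction proteins overlapped between AL and control mice. Pecam1, the homophilic adhesion molecule CD31, had a median of 134.1 CPM in AL mice of the first run (104.7 to 173.0), 101.1 to 120.7 CPM in LS and 114.4 to 129.0 CPM in Ctrl mice. The AL range overlapped both control ranges, with a log2FC of 0.34 against LS (SE 0.121, FDR = 0.0441) and 0.20 against Ctrl mice (SE 0.121, FDR = 0.232). The call against LS mice was lost without any one of AL1, AL2, AL5, AL6, LS1 to LS4, Ctrl1, Ctrl2 or Ctrl4. Cdh5, the VE-cadherin of endothelial junctions, had a log2FC of 0.11 against Ctrl (SE 0.1, FDR = 0.458) and 0.16 against LS mice (SE 0.101, FDR = 0.24). Esam and Robo4, a junction protein and a guidance receptor that stabilises vessels, passed against LS mice at 0.43 (FDR = 0.0377) and 0.43 (FDR = 0.0313), with FDR = 0.0554 and 0.116 against Ctrl mice. Both calls were lost without LS2, LS3 or LS4, and that of Esam also without AL1, AL5 or AL7, while Esam passed against Ctrl mice without AL3, AL4 or LS1. Vwf, the clotting factor of larger vessels, had a log2FC of -0.02 (FDR = 0.961) against Ctrl and 0.14 (FDR = 0.722) against LS mice. Plvap, the diaphragm protein of fenestrated capillaries, had -0.05 (FDR = 0.881) and 0.13 (FDR = 0.668). The tight junction gene Cldn5, the caveolar gene Cavin2 and the nitric oxide synthase gene Nos3 did not pass either, with log2FC from -0.14 to 0.11 against Ctrl and from 0.01 to 0.36 against LS mice.

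**Figure D2:**
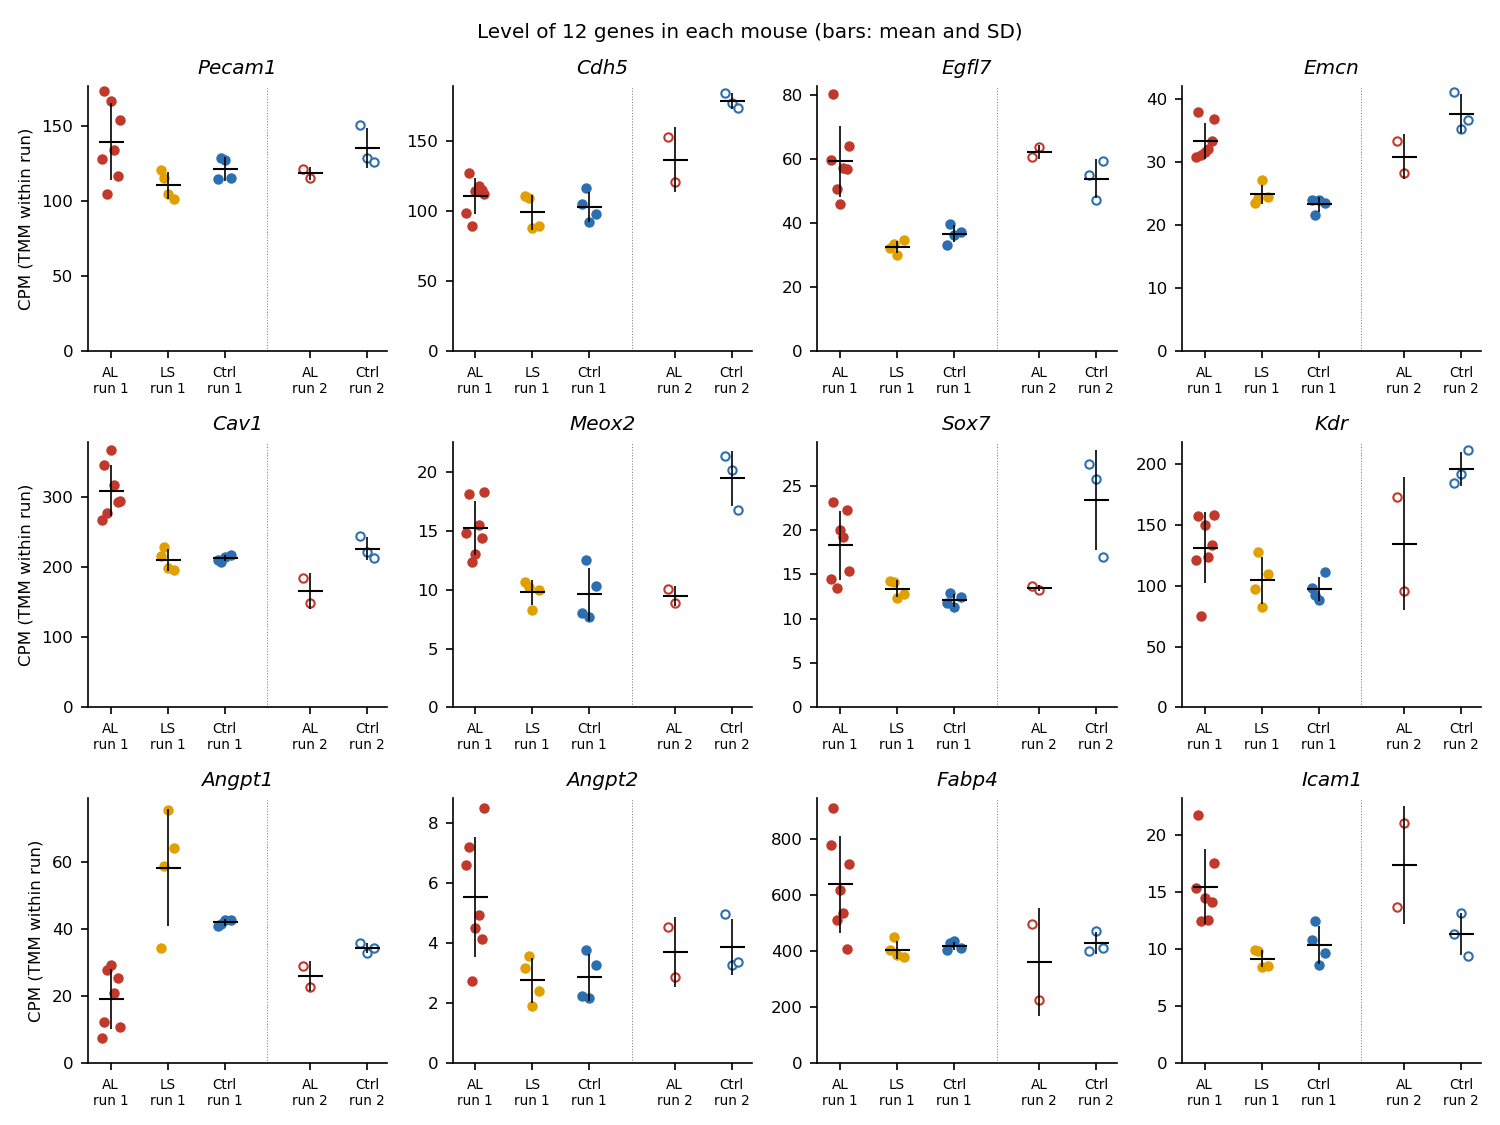
Level in CPM of 12 genes in each mouse, with filled points for the first run, open points for the second run, and the mean and SD of each group. In the first run every AL mouse lies above all LS and Ctrl mice for Egfl7, Emcn and Cav1 and below them for Angpt1, and in the second run AL mice lie below Ctrl mice for Cdh5, Emcn, Cav1, Meox2 and Sox7.

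The transcription factors were the role with the largest share of members higher against Ctrl mice, 7 of 10 (Dach1, Meox2, Tcf15, Sox7, Nr2f2, Fli1 and Erg), and 5 of 10 were higher against LS mice (Meox2, Tcf15, Sox7, Nr2f2 and Fli1). Over all genes 25.6% passed against Ctrl (11.0% higher) and 32.5% against LS mice (15.6% higher). The median log2FC of the 10 was 0.461 and 0.378. Meox2, a homeobox factor of heart capillaries, was at 18.2, 13.1, 14.5, 12.4, 15.6, 18.3 and 14.9 CPM in AL1 to AL7, 10.7, 8.28, 9.99 and 10.2 CPM in LS1 to LS4, and 8.03, 7.68, 10.3 and 12.5 CPM in Ctrl1 to Ctrl4. AL4 was below Ctrl4 by a small margin and all other AL mice were above every control. The log2FC was 0.66 (SE 0.143, FDR = 0.00547) against Ctrl and 0.64 (SE 0.142, FDR = 0.00444) against LS mice. Sox7 was at 23.2, 20.04, 22.3, 13.4, 19.2, 15.4 and 14.5 CPM in AL1 to AL7, at 12.4 to 14.2 CPM in LS and at 11.3 to 12.9 CPM in Ctrl mice. No Ctrl mouse reached an AL mouse, and the log2FC was 0.60 (SE 0.137, FDR = 0.00732) against Ctrl and 0.45 (SE 0.136, FDR = 0.0207) against LS mice. The other SOXF genes differed from it, with a log2FC of 0.17 for Sox18 (FDR = 0.424) and -0.30 for Sox17 (FDR = 0.403) against Ctrl mice, although the difference between these genes was not tested.

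Dach1, which takes part in coronary artery growth, had another order of groups. It was at 8.10 to 11.9 CPM in AL, 8.17 to 9.69 CPM in LS and 3.94 to 7.35 CPM in Ctrl mice of the first run, so that AL and LS overlapped and both lay above Ctrl. The log2FC was 0.80 (SE 0.154, FDR = 0.00339) for AL against Ctrl, 0.17 (SE 0.149, FDR = 0.399) for AL against LS and 0.63 (SE 0.17, FDR = 0.575) for LS against Ctrl mice. Nr2f2, the venous identity factor COUP-TFII, had a log2FC of 0.54 (SE 0.132, FDR = 0.00962) against Ctrl and 0.61 (SE 0.133, FDR = 0.00404) against LS mice, and its AL levels of 7.65 to 10.9 CPM did not overlap those of LS mice (4.89 to 6.73 CPM). Tcf15 had 0.61 (FDR = 0.035) and 0.72 (FDR = 0.0142), Fli1 0.38 (FDR = 0.0176) and 0.37 (FDR = 0.0144), and Erg 0.33 (FDR = 0.00875) and 0.20 (FDR = 0.0616) against Ctrl and LS mice. Against Ctrl mice the call of Fli1 was lost without Ctrl2 and that of Tcf15 without AL1, AL5, AL6, AL7, Ctrl1 or Ctrl2, and against LS mice Fli1 was lost without LS2 and Sox7 without LS2 or LS3. Prox1, the lymphatic factor that heart muscle cells also express, had 0.05 (FDR = 0.876) and -0.24 (FDR = 0.325).

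None of the 5 VEGF and angiopoietin receptors passed in either comparison by edgeR, with 2 of them at an unadjusted p under 0.05 against Ctrl and 0 against LS mice, where 38.8% and 43.9% of all genes had such a p. DESeq2 passed 0 of them against LS and 1, Kdr, against Ctrl mice. Kdr was at 157.1, 150.1, 133.8, 75.3, 123.6, 158.4 and 121.4 CPM in AL1 to AL7, with LS mice at 82.9 to 128.1 CPM and Ctrl mice at 88.1 to 111.1 CPM. AL4 was the lowest mouse of the run and the other AL mice were above every Ctrl mouse, with a log2FC of 0.43 (SE 0.17, FDR = 0.0738) against Ctrl and 0.33 (SE 0.169, FDR = 0.147) against LS mice. Without AL4, Kdr passed by edgeR against both Ctrl and LS mice. Flt1 had 0.06 (SE 0.168, FDR = 0.831) and 0.25 (SE 0.169, FDR = 0.268), and Tek 0.10 (SE 0.0885, FDR = 0.406) and 0.05 (SE 0.0884, FDR = 0.687). Tie1, the orphan partner of Tek, had 0.28 (FDR = 0.115) and 0.23 (FDR = 0.177), and Flt4 -0.14 (SE 0.109, FDR = 0.378) and 0.13 (SE 0.11, FDR = 0.367). Without Ctrl4, Tie1 passed against Ctrl mice.

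The ligands moved in both directions. Angpt1 was at 12.3, 29.3, 25.4, 27.7, 20.9, 10.9 and 7.44 CPM in AL1 to AL7, at 34.2, 75.5, 64.2 and 58.8 CPM in LS1 to LS4 and at 40.8, 42.7, 42.7 and 41.6 CPM in Ctrl1 to Ctrl4. Every AL mouse was below every control mouse, AL1, AL6 and AL7 were the lowest, and the LS mice were spread more widely than the Ctrl mice. The log2FC was -1.13 (SE 0.312, FDR = 0.0175) against Ctrl and -1.61 (SE 0.311, FDR = 0.00214) against LS mice, and 0.47 (SE 0.359, FDR = 0.756) for LS against Ctrl mice. Angpt2, its counterpart on the receptor Tek, was at 7.20, 4.51, 4.14, 2.72, 4.94, 8.49 and 6.59 CPM in AL1 to AL7, at 1.90 to 3.57 CPM in LS and at 2.16 to 3.76 CPM in Ctrl mice. AL4 lay within the control range and the other AL mice above it, with a log2FC of 0.95 (SE 0.287, FDR = 0.0259) against Ctrl and 1.00 (SE 0.287, FDR = 0.0168) against LS mice. AL1, AL6 and AL7 were thus the 3 lowest mice for Angpt1 and the 3 highest for Angpt2. Vegfa had a log2FC of 0.55 (SE 0.176, FDR = 0.027) against LS and 0.27 (SE 0.174, FDR = 0.271) against Ctrl mice. Vegfc rose against both, by 0.42 (FDR = 0.0181) and 0.41 (FDR = 0.0174), from a low level of 2.23 to 3.04 CPM in the controls to 2.97 to 3.97 CPM. Angpt2 did not pass against Ctrl mice without Ctrl1 or Ctrl2, nor against LS mice without LS2. Vegfc did not pass against Ctrl mice without Ctrl4, nor against LS mice without LS1 or LS4, and Vegfa not without LS1, LS2 or LS4. Vegfb, the VEGF ligand of heart muscle that acts on Flt1, had -0.09 (FDR = 0.426) and 0.10 (FDR = 0.308).

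Aplnr, the apelin receptor of endothelial and muscle cells, rose against Ctrl mice by a log2FC of 0.98 (SE 0.338, FDR = 0.0457). It was at 17.6, 14.3, 36.2, 14.5, 22.0, 17.5 and 12.1 CPM in AL1 to AL7, with AL3 far above the others, at 7.89 to 18.9 CPM in LS and at 4.37 to 13.5 CPM in Ctrl mice. The groups overlapped, and the log2FC against LS mice was 0.65 (SE 0.332, FDR = 0.145). The call against Ctrl mice was lost without any one of AL1, AL3, AL5, AL6, LS2, LS4, Ctrl1, Ctrl2 or Ctrl4. Its ligand gene Apln had 0.18 (FDR = 0.521) against Ctrl and 0.37 (FDR = 0.159) against LS mice.

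Of 7 Notch, ephrin and guidance genes, 2 rose against Ctrl (Dll4 and Unc5b) and 1 against LS mice (Dll4). These are 28.6% and 14.3% of the list. Over all genes 25.6% passed against Ctrl (11.0% higher) and 32.5% against LS mice (15.6% higher). Dll4 was at 19.7, 15.7, 15.8, 12.1, 17.2, 18.8 and 15.5 CPM in AL1 to AL7, at 9.32 to 12.2 CPM in LS and at 9.36 to 12.3 CPM in Ctrl mice, so that only AL4 lay within the control range. The log2FC was 0.59 (SE 0.122, FDR = 0.00475) against Ctrl and 0.60 (SE 0.122, FDR = 0.00277) against LS mice. Unc5b, a netrin receptor of tip cells and arteries, had 0.46 (SE 0.14, FDR = 0.0267) against Ctrl and 0.33 (SE 0.139, FDR = 0.0831) against LS mice, and its call was lost without Ctrl2 or Ctrl4. The receptors Notch1 and Notch4, the Notch ligand Jag1, the Notch target Hey1 and the arterial ligand Efnb2 did not pass, with log2FC from -0.19 (Notch1) to 0.33 (Efnb2) over both comparisons. Efnb2 passed against both groups without Ctrl4 and against LS mice without AL4. Against LS mice Jag1 passed without LS4 and Notch4 without LS1.

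Of the 5 capillary transport and metabolism genes, Fabp4 rose against both groups and Cd300lg against LS mice. The shares passing were 20% against Ctrl and 40% against LS mice, where 25.6% and 32.5% of all genes passed (11.0% and 15.6% higher). Fabp4 was at 911.2, 619.6, 408.1, 513.6, 536.0, 710.9 and 779.1 CPM in AL1 to AL7, at 379.1 to 450.2 CPM in LS and at 405.2 to 436.5 CPM in Ctrl mice. AL3 lay within both control ranges and the other AL mice above them, with a log2FC of 0.61 (SE 0.167, FDR = 0.0175) against Ctrl and 0.66 (SE 0.167, FDR = 0.00883) against LS mice. The summed level of 5 adipocyte markers was 34.7 CPM in AL1 and 0.449 to 5.05 CPM in AL2 to AL7, against 0.565 to 3.08 CPM in LS and 0.624 to 5.75 CPM in Ctrl mice. The log2FC was above 0 for all 5 markers in both comparisons, with a median of 1.996 against Ctrl and 2.606 against LS mice. Fabp4 passed both comparisons without AL1, and the part of fat cells in its level was not tested. Cd300lg, a capillary mucin known as nepmucin, had 0.32 (SE 0.102, FDR = 0.0273) against LS and 0.28 (SE 0.102, FDR = 0.0602) against Ctrl mice, and its call was lost without any one LS mouse, while it passed against Ctrl mice without AL3, AL4 or Ctrl2. Aqp1 and Rgcc did not pass, with 0.08 (FDR = 0.781) and -0.13 (FDR = 0.784) against Ctrl mice, and Gpihbp1, the capillary anchor of lipoprotein lipase, had 0.33 (FDR = 0.117) and 0.38 (FDR = 0.064). Without AL3, Gpihbp1 passed against both Ctrl and LS mice.

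Of the 4 leukocyte adhesion genes, 25% passed against Ctrl and 50% against LS mice, all higher. Over all genes 25.6% and 32.5% passed (11.0% and 15.6% higher). Icam1 rose against both groups. It was at 21.8, 14.4, 14.1, 12.4, 12.6, 17.5 and 15.4 CPM in AL1 to AL7, at 8.46 to 9.87 CPM in LS and at 8.61 to 12.4 CPM in Ctrl mice. Every AL mouse was above every LS mouse, and AL4 lay at the level of the highest Ctrl mouse, with a log2FC of 0.58 (SE 0.145, FDR = 0.0113) against Ctrl and 0.76 (SE 0.146, FDR = 0.00214) against LS mice. Vcam1 had 0.25 (FDR = 0.2) and 0.31 (FDR = 0.0951). Selp, P-selectin, passed against LS mice with a log2FC of 2.53 (SE 0.911, FDR = 0.0455), but AL7 held 185 of its counts and AL1 60, while the other AL mice of the first run held 7 to 26, LS mice 2 to 14 and Ctrl mice 7 to 30 counts. It did not pass without AL7, nor without AL1, any one LS mouse, Ctrl2, Ctrl3 or Ctrl4. Sele, E-selectin, had -0.34 (FDR = 0.597) against Ctrl and 0.57 (FDR = 0.355) against LS mice.

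The comparison of LS with Ctrl mice sets the human light chain gene without induced amyloid against the shared background. Of the 50 members, 0 passed the edgeR test and 0 passed DESeq2, with 3 at an unadjusted p under 0.05 (Dach1, Flt4 and Vegfb). Over all genes 0.0210% passed, and 8.21% had an unadjusted p under 0.05. The median log2FC of the members was -0.052 against -0.007 over all genes. Apart from Dach1, which was 1.55-fold higher in LS mice, Flt4 had -0.27 (SE 0.124, FDR = 0.602) and Vegfb -0.19 (SE 0.0855, FDR = 0.602). With 4 mice in each group, the standard errors of the named members lay between 0.0752 (Emcn) and 0.979 (Selp) on the log2 scale.

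In the second run the direction was different for most members. Selp was too low to be tested, 0 of the other 49 members passed the edgeR test between 2 AL and 3 Ctrl mice, and 0.128% of 12496 genes did. The log2FC was below 0 for 35 of the 49 members and for 46.5% of all genes, with a median of -0.285 against 0.036 over all genes, and 18 members had an unadjusted p under 0.05 where 14.1% of all genes did. These 18 were Cldn5 and Vegfa, which were higher, and Cav1, Cavin2, Erg, Fli1, Meox2, Dach1, Sox7, Flt1, Tek, Tie1, Vegfc, Apln, Aplnr, Notch1, Hey1 and Aqp1, which were lower. Both AL mice lay below all 3 Ctrl mice for 24 of the 49 members and above them for 6, where 16.5% and 16.7% of all genes were so placed. By DESeq2, 8 members passed (Cldn5 higher, and Cavin2, Meox2, Dach1, Flt1, Tek, Aplnr and Aqp1 lower), where 2.91% of all genes did.

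Meox2 was at 10.1 and 8.91 CPM in AL8 and AL9 and at 21.4, 20.2 and 16.8 CPM in Ctrl5 to Ctrl7, and its log2FC was -1.03 (SE 0.211, FDR = 0.177). Dach1 was at 5.05 and 4.45 CPM against 14.1, 11.7 and 10.4 CPM, with a log2FC of -1.34 (SE 0.264, FDR = 0.177). Aplnr was at 12.5 and 5.74 CPM against 24.2, 18.2 and 30.6 CPM, with a log2FC of -1.43 (SE 0.382, FDR = 0.257). In each of the 3 genes no AL mouse reached a Ctrl mouse, the reverse of the order of the means in the first run. Other members kept the order of the first run. Icam1 was at 13.7 and 20.98 CPM in AL8 and AL9 and at 11.3, 13.1 and 9.42 CPM in Ctrl5 to Ctrl7, with a log2FC of 0.63 (SE 0.264, FDR = 0.354). Angpt1 was at 29.1 and 22.9 CPM against 35.7, 33.0 and 34.2 CPM, with a log2FC of -0.40 (SE 0.172, FDR = 0.355). Egfl7 was at 60.6 and 63.7 CPM against 54.9, 47.2 and 59.3 CPM, with a log2FC of 0.21 (SE 0.157, FDR = 0.555). In these 3 genes the groups did not overlap, although none passed.

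The values of AL8 and AL9 differed for some members, of which 3 where AL9 was above all other mice of its run are given here, chosen after their values were seen. Plvap was at 9.40 CPM in AL9, 1.99 CPM in AL8 and 2.94 to 3.121 CPM in Ctrl5 to Ctrl7. Vcam1 was at 35.7 CPM in AL9, 13.6 CPM in AL8 and 15.9 to 20.9 CPM in the Ctrl mice, and Sox17 at 13.3, 4.12 and 7.49 to 8.93 CPM. Other members were low in AL9, with Emcn at 28.3 CPM, 33.4 CPM in AL8 and 35.3 to 41.1 CPM in the Ctrl mice. Dll4 was at 16.4, 20.6 and 19.0 to 30.1 CPM, and Hey1 at 7.13, 5.715 and 10.3 to 11.9 CPM. Emcn and Hey1 were thus below every Ctrl mouse in AL8 as well. The summed markers of mesothelium, the outer lining of the heart, were at 231.7 CPM in AL9, 44.4 CPM in AL8 and 26.1 to 32.1 CPM in the Ctrl mice, those of fibroblasts at 1661, 335.3 and 464.2 to 780.0 CPM, and those of lymphatic endothelium at 185.3, 31.8 and 43.7 to 72.7 CPM. The neutrophil markers were higher in both AL mice of the run, at 30.6 and 37.7 CPM against 0.754 to 3.53 CPM in the Ctrl mice. The difference between runs in the log2FC of AL against Ctrl mice was above 0 for all 5 of these markers. Of them 4 passed, where 0.512% of all genes passed in this direction. The part of these lists in the values of the second run was not tested.

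The difference between the runs was tested in a fit of all 20 mice with a mean for each group and run. For 12 members the log2FC of AL against Ctrl mice was lower in the second run than in the first at an FDR under 0.05 by edgeR (Emcn, Cav1, Cavin2, Erg, Fli1, Meox2, Dach1, Sox7, Tek, Tie1, Vegfc and Dll4), and 0 members passed in the other direction. Passing or not, the difference was below 0 for 40 members and above 0 for 10, and 25 had an unadjusted p under 0.05. Over all 15032 genes, 1.31% passed, 0.798% lower and 0.512% higher. The median of this difference was -0.527 over the members and 0.002 over all genes. The transcription factors made up 5 of the 12. Of the members that had risen against both LS and Ctrl mice in the first run, 7 were among the 12 (Emcn, Cav1, Fli1, Meox2, Sox7, Vegfc and Dll4). The first-run values that picked these members also enter the difference, so this overlap is partly set by the choice. The sizes ranged from -0.85 for Cavin2 (SE 0.165, FDR = 0.0201) to -2.20 for Dach1 (SE 0.293, FDR = 0.00111), with -1.76 for Meox2 (SE 0.264, FDR = 0.00341) and -1.04 for Cav1 (SE 0.159, FDR = 0.004). The receptors Tek and Tie1 had -0.99 (FDR = 0.0304) and -0.88 (FDR = 0.0496) without having passed the edgeR test within either run, although Tek passed in the second run by DESeq2. For Icam1 the difference was -0.01 (SE 0.283), for Angpt1 0.68 (SE 0.533, FDR = 0.561) and for Egfl7 -0.54 (SE 0.209, FDR = 0.198). The runs differ in their mice as well as in their sequencing, and the 2 cannot be told apart.

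**Figure D3:**
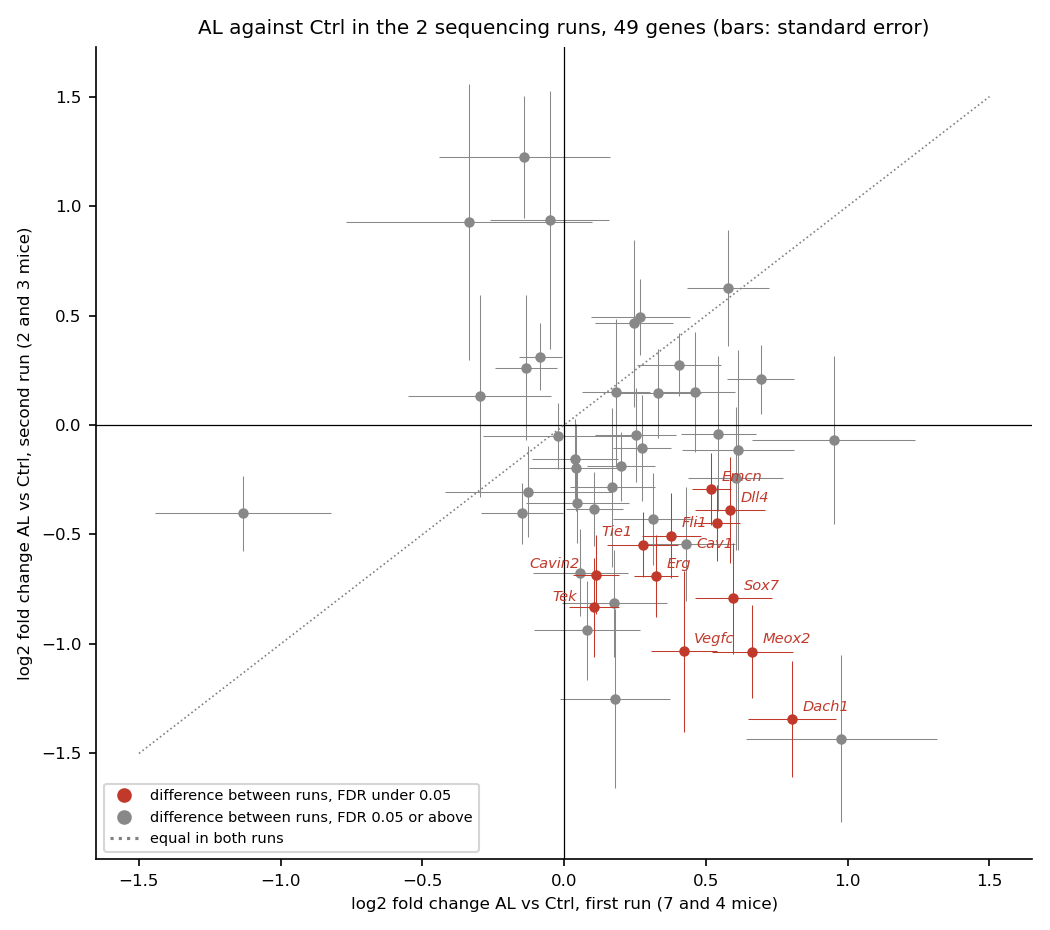
Log2 fold change of AL against Ctrl mice in the first run (horizontal) and the second run (vertical) for 49 members, with bars for the standard error. The 12 members in red, whose difference between runs had an FDR under 0.05, all lie below the dotted line of equal values, and Dach1 lies lowest among them at 0.80 in the first run and -1.34 in the second.

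The count of 12 depended on single mice of the second run, with 7 members passing without Ctrl5, where 0.467% of all genes did. It also moved without AL8 or AL9. In those fits the AL group of the second run is a single mouse, which is assumed to vary like the other groups, and their counts are not given.

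A list of 56 other endothelial and angiogenesis genes was counted in the same way, of which 55 were tested within each run. Against Ctrl mice of the first run 8 rose and 2 fell, and against LS mice 13 rose and 3 fell, that is 18.2% and 29.1% passing, where 25.6% and 32.5% of all genes did. The median log2FC was 0.11 and 0.114. Icam2, an endothelial adhesion ligand of leukocytes, was at 19.1 to 23.4 CPM in AL, 12.9 to 15.1 CPM in LS and 13.2 to 16.2 CPM in Ctrl mice, with AL above both and LS and Ctrl overlapping, with a log2FC of 0.49 (SE 0.0701, FDR = 0.00102) against Ctrl and 0.57 (SE 0.0704, FDR = 0.000401) against LS mice. Clec14a, a lectin of sprouting endothelium, had 0.47 (FDR = 0.0135) and 0.82 (FDR = 0.000819), and Car4, the carbonic anhydrase of capillaries, 0.74 (FDR = 0.0023) and 0.68 (FDR = 0.00183). Eng, the TGF-beta co-receptor endoglin, had 0.41 (FDR = 0.0402) and 0.67 (FDR = 0.00322). Ly6a had 0.68 (FDR = 0.0186) and 0.83 (FDR = 0.0053), and Ly6c1 0.50 (FDR = 0.0345) and 0.71 (FDR = 0.00552). Tmem100, a target of BMP9 and ALK1 signalling in endothelium, fell. It was at 2.18 to 6.67 CPM in AL, 5.79 to 40.8 CPM in LS and 6.09 to 16.5 CPM in Ctrl mice, with a log2FC of -1.47 (SE 0.424, FDR = 0.021) against Ctrl and -2.53 (SE 0.421, FDR = 0.00113) against LS mice. Tfpi, an inhibitor of coagulation, had -0.39 (FDR = 0.0578) and -0.67 (FDR = 0.00366). In the second run 0 of 55 passed by edgeR with 10 at an unadjusted p under 0.05, where 14.1% of all genes had such a p. For the difference between runs 1 of 56, Thbd, passed, that is 1.79%, where 1.31% of all genes did.

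Summed marker levels of other cell types also differed between groups and stand beside the members. In the first run the 8 cardiomyocyte markers summed to 45600 to 56400 CPM in AL, 59120 to 65750 CPM in LS and 56860 to 63070 CPM in Ctrl mice. All 7 AL mice were below every control, with 2 of the 8 markers lower against Ctrl (Myh6 and Pln) and 3 against LS mice (these with Ckm). Over all genes 14.6% passed lower against Ctrl and 16.9% against LS mice. Myh6 had the highest level of the 8, with a mean of 18710 CPM in AL, 26290 CPM in LS and 25280 CPM in Ctrl mice. Against Ctrl mice the log2FC was below 0 for 6 markers and above 0 for 2. Mean levels of Mb (10790 against 10000 CPM) and Actc1 (7936 against 7261 CPM) were higher in AL than in Ctrl mice. Over the members the sum was 2777 to 4011 CPM in AL, 2375 to 2768 CPM in LS and 2479 to 2849 CPM in Ctrl mice, and in the second run 2471 and 3014 CPM in AL and 3266 to 3335 CPM in Ctrl mice. With the mean log2 CPM of the cardiomyocyte markers as a covariate, 4 members passed against Ctrl (Egfl7, Emcn, Cav1 and Dach1) where 4.23% of all genes did, and 0 against LS mice where 0.049% did. The 20 liver markers summed to 4.29 to 52.3 CPM in AL, 10.9 to 262.8 CPM in LS and 64.0 to 383.7 CPM in Ctrl mice of the first run, with 19 of 20 lower in AL against Ctrl mice. With the mean log2 CPM of the liver markers as a covariate, 5 members passed against Ctrl (Egfl7, Emcn, Meox2, Angpt1 and Angpt2) where 2.21% of all genes did, and 12 against LS mice where 18.1% did. In the second run the liver sum was 3.44 to 7.32 CPM in all 5 mice.

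**Figure D4:**
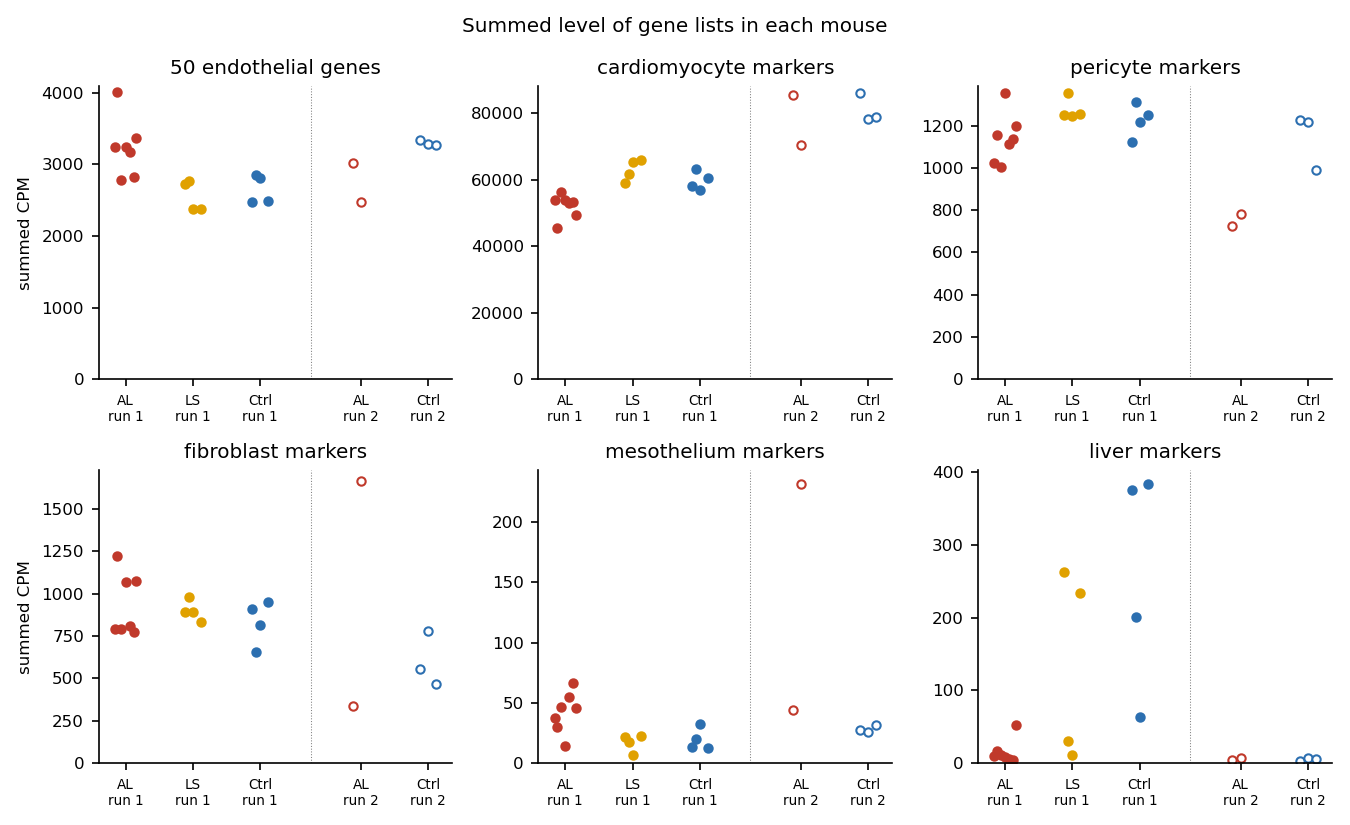
Summed level in CPM of the 50 members and of 5 marker lists in each mouse, with filled points for the first run and open points for the second. Cardiomyocyte and liver sums are lower in all 7 AL mice of the first run than in all Ctrl mice, and the pericyte sums of AL8 and AL9, 725.9 and 781.1 CPM, are lower than those of Ctrl5 to Ctrl7.

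The 6 pericyte markers, of the cells that hold capillaries from outside, summed to 1004 to 1354 CPM in AL, 1246 to 1356 CPM in LS and 1121 to 1313 CPM in Ctrl mice of the first run. Of these Kcnj8 rose and Abcc9 fell against both groups, and Cspg4 rose against LS mice. In the second run their sum was 725.9 and 781.1 CPM in AL and 992.3 to 1229 CPM in Ctrl mice. The 4 mesothelium markers summed to 14.7 to 66.1 CPM in AL, 6.76 to 22.2 CPM in LS and 12.6 to 32.7 CPM in Ctrl mice of the first run, with 0 of 4 passing against Ctrl mice (3 at an unadjusted p under 0.05) and 2 against LS mice. The 5 neutrophil markers summed to 2.55 to 19.2 CPM in the first run. Against Ctrl mice of the first run, 2 of 7 macrophage markers passed (Cd68 higher and Mrc1 lower), and 0 passed of the lists for fibroblasts (7), smooth muscle (5), endocardium (3 tested), lymphatic endothelium (6 identifiers), adipocytes (5), platelets (4 tested), red cells (5), T and B cells (7) and neutrophils (5), of which each list had 0 to 2 markers at an unadjusted p under 0.05. Against LS mice 2 of 7 fibroblast, 3 of 4 platelet, 1 of 5 adipocyte and 1 of 7 T and B cell markers passed, all higher. Of the 7 macrophage markers 3 passed higher and 1 lower. In the smooth muscle, endocardium, lymphatic, red cell and neutrophil lists 0 passed, and 1 smooth muscle marker had an unadjusted p under 0.05. Over all genes 25.6% passed against Ctrl and 32.5% against LS mice, and 38.8% and 43.9% had an unadjusted p under 0.05. Apart from an identifier of Ccl21a, no marker was at 0 in every mouse. The part of these lists in the members' values was not tested. The covariate fits cannot separate it from the group where AL and control mice differ in the marker level itself. The cardiomyocyte sums of AL mice overlapped neither control group, and their liver sums did not overlap those of Ctrl mice.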

How the data were processed

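RNA of the heart apex of 20 mice was sequenced by the authors as stranded polyadenylated libraries with paired-end reads. Per the labels and the study's methods, reads were aligned to GRCm38 with STAR and quantified with Salmon in the nf-core workflow, with Ensembl annotation; versions of STAR and Salmon are not given in the sources used here. The authors deposited estimated counts for 25308 genes, neither scaled nor adjusted for the run, and 14.2% of them were not whole, so they were rounded. All 20 sample columns were used, matched to mice by the library name in the labels.

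Genes were kept by filterByExpr of edgeR 4.0.16 (minimum count 10, by group), which left 14288 genes in the first run, 12496 in the second and 15032 in the fit of both. Libraries were scaled by TMM and tested with glmQLFit and glmQLFTest in R 4.3.3, p-values were two-sided, and the FDR was computed by the Benjamini-Hochberg method over all genes of a fit. AL, LS and Ctrl mice of the first run shared a fit, the second run had its own, and the difference between runs came from a fit with 5 group and run means. A gene passed at an FDR under 0.05, and the 1.5-fold threshold was an absolute log2FC of 0.58. Standard errors were derived from the F statistic. CPM was TMM-scaled within a run, and RPKM used the merged exon length of GENCODE M21, which matched all 50 members. Replicate numbers are shared by the groups of the first run but did not pair the mice. Total counts of 7867642 to 62668146 set the precision, and the second run is the shallower.

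The study itself fitted both runs after ComBat adjustment. Alternatives were that kind of adjustment (ComBat-seq, sva 3.50.0), the run as a term, DESeq2 1.42.0, RLE factors, other filters, only the groups compared, a replicate block, covariates (Xist, liver, cardiomyocyte) and each mouse left out. Named with a log2FC and FDR, and for some a standard error, were members passing in any comparison, with Pecam1, Cdh5, Kdr, Flt1, Tek, Vegfa, Angpt2, Apln, Aplnr, Prox1, Vwf, Plvap, Icam1, Vcam1, Sele and Selp, and up to 8 other endothelial genes by smallest p among those passing. Values of further members were added after they were seen. Members, marker lists and tests were chosen with earlier results of these data known. The test code was tested on simulated data. Figures were drawn with matplotlib 3.10.9. Amyloid scores and heart function of single mice were not used here.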

Additional observations from a re-analysis of the deposited data

Results flagged for a closer look

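Among the named members, 108 groups of 4 or 7 mice of the first run were searched for a mouse far from the rest of its group, and 6 were found, where about 1 in 20 (5.4) would be found by chance. Robo4 was at 46.72 CPM in AL1, with the next AL mouse at 34.34 CPM, and at 29.23 CPM in Ctrl4, with the next Ctrl mouse at 26.02 CPM. Aplnr was at 36.21 CPM in AL3 against 22.01 CPM in the next AL mouse. Vcam1 was at 14.42 CPM in AL7, the lowest AL mouse, with the next at 22.05 CPM, and without AL7 it passed against both groups. Sele was at 2.03 CPM in Ctrl4 against 0.541 CPM in the next Ctrl mouse. Selp was at 3.946 CPM in AL7 against 0.9017 CPM in the next AL mouse.

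For 12 members the log2FC of AL against Ctrl mice differed between the runs, by a test of the difference itself. In the second run minus the first it was -0.865 for Emcn, -1.039 for Cav1, -0.849 for Cavin2, -1.07 for Erg, -0.938 for Fli1, -1.756 for Meox2, -2.204 for Dach1, -1.443 for Sox7, -0.99 for Tek, -0.878 for Tie1, -1.516 for Vegfc and -1.031 for Dll4.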

How the results depend on the processing

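Counts of members passing moved most with the mice and covariates fitted, from 18 (AL against Ctrl) and 20 (AL against LS) in the first run. All 20 mice with the run as a term gave 4 and 9 (1 and 5 at 1.5-fold, from 10 and 10), where 26.2% and 23.4% of all genes passed. ComBat-seq counts gave 3 and 3 (3 and 3 at 1.5-fold), where 5.35% and 4.42% of all genes did. The liver covariate gave 5 against Ctrl (4 at 1.5-fold) and 12 against LS, where 2.21% and 18.1% did. The cardiomyocyte covariate gave 4 and 0 (1 and 0 at 1.5-fold), where 4.23% and 0.049% did, with Robo4 against LS turned to -0.004. Xist gave 6 and 6 at 1.5-fold, where 22.6% and 32.8% of all genes passed at any size. Leaving out 1 mouse gave 14 to 21 against Ctrl (5 to 11 at 1.5-fold, with 5 without AL1 and 6 without AL6 or Ctrl2) and 11 to 23 against LS (5 to 12 at 1.5-fold, with 11 and 5 without LS2 and 6 at 1.5-fold without AL1). Over all genes 18.1% to 26.8% passed against Ctrl and 24% to 33.1% against LS mice in these fits. No filter, stricter filters, RLE factors, DESeq2 and fits of only the groups compared kept these counts within 1.5 times. For LS against Ctrl mice 0 members passed under every alternative run. In the second run DESeq2 gave 8 (8 at 1.5-fold) in place of 0, where 2.91% of all genes passed, and leaving out 1 Ctrl mouse gave 0. For the difference between runs, 12 became 7 without Ctrl5 (7 at 1.5-fold), where 0.467% of all genes passed. Fits without AL8 or AL9 leave a single AL mouse in the second run, and their counts, which also moved, are not given. A replicate block gave 13 members against Ctrl and 12 against LS mice (9 and 5 at 1.5-fold), where 13.2% and 19.8% of all genes passed. Deviations of same-numbered mice correlated at -0.157 to 0.24 (over 0.1 in 3 of 12 pairs), and 3 of 12 mice correlated best with their own number. For the second run and the difference between runs no replicate block could be fitted, because the groups of the second run share 0 numbers. Causes of these changes were not tested. The second run, at 7867642 to 11794615 counts and with 2 AL mice, limits all its values.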
